A study of Homo sapiens with 14 samples.

Results

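The UGT2B genes encode UDP-glucuronosyltransferases, membrane enzymes of the endoplasmic reticulum, and 7 of them were followed here across RNA sequencing libraries of 22Rv1 cells: UGT2B4, UGT2B7, UGT2B10, UGT2B11, UGT2B15, UGT2B17 and UGT2B28. The members were taken by name, 7 genes of 57904 features in the knockdown table, of 57905 in each dTAG table and of 20243 in the R219S table, and each had a row in all 4 tables. These are all the UGT2B symbols of the gene-name table that do not carry the mark of a pseudogene, so no value chose among them. The family as a whole was chosen by measured values, its counts in the compared groups as seen in earlier results of these data, so the adjusted p-values below describe the fits and are not independent support. The identifiers in the knockdown and dTAG tables were ENSG00000156096 for UGT2B4, ENSG00000171234 for UGT2B7, ENSG00000109181 for UGT2B10, ENSG00000213759 for UGT2B11, ENSG00000196620 for UGT2B15, ENSG00000197888 for UGT2B17 and ENSG00000135226 for UGT2B28.

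A UDP-glucuronosyltransferase moves glucuronic acid from UDP-glucuronic acid onto a small molecule, which makes that molecule soluble in water and ready for export. In the prostate the family is known for ending the action of androgens, because glucuronides of dihydrotestosterone and its metabolites no longer act as androgens. UGT2B15 and UGT2B17 are the main androgen-conjugating enzymes of prostate cells, UGT2B28 also accepts androgens, UGT2B7 accepts many drugs and steroids, UGT2B4 acts on bile acids, and UGT2B10 attaches glucuronic acid to tertiary amines such as nicotine. The liver and gut express most of these genes strongly, and forkhead transcription factors are among those known to act on their promoters.

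22Rv1 is an established human prostate cancer line, and the series changed FOXA1, a pioneer transcription factor of luminal prostate cells, in 3 ways. Cells received lentivirus with a control hairpin (shCtrl) or a hairpin against FOXA1 (shFOXA1), with wild-type FOXA1 in both. Cells of the FOXA1_dTAG genotype, in which FOXA1 carries a tag that a small molecule can use to send the protein to degradation, were sampled at 0 h, 1 h and 24 h. A last pair of groups, WT and R219S, also had the FOXA1_dTAG background, and the R219S cells carried a mutation at R219 of FOXA1. Each of the 7 groups had 2 libraries, 14 in all. The treatment notes name the degrader or its vehicle for the dTAG, WT and R219S groups together, without saying which the WT and R219S libraries received, and no 24 h vehicle group is named. Neither the number of clones nor separate cultures are stated, so the spread behind the p-values may be technical. The titles of the shCtrl libraries read 22Rv2 while their cell line entry reads 22Rv1.

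Library totals ran from 21.6 to 38.5 M counts. FOXA1 mRNA was 406 and 437 counts-per-million (CPM) in shCtrl and 297 and 301 CPM in shFOXA1, a log2 fold change of -0.47 ± 0.062 (SE), so a large part of the transcript remained under the hairpin. It did not pass the test at 1 h, and it rose by 0.23 ± 0.039 at 24 h, where the degrader acts on protein that was not measured here. Luminal prostate markers had counts in every group, 10 of 10 genes. Of the hepatocyte markers 8 to 10 of 10 had counts, and their summed level was 456 to 474 CPM in shCtrl and at most 70.9 CPM in each other group, while 3 to 5 of 7 enterocyte markers had counts and summed to 18.8 to 62.2 CPM. CD3E was at 0 in 5 of 7 groups, and the 4 leukocyte markers never summed to more than 3.33 CPM.

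The members resemble each other closely, which bears on which gene a read is counted for, so the start of the coding sequence is shown for the most alike pairs. The first 90 coding bases come from the GENCODE 29 transcripts, and capitals mark bases that differ from UGT2B15 after alignment.
UGT2B15: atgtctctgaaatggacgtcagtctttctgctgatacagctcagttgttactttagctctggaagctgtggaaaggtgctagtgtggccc
UGT2B17: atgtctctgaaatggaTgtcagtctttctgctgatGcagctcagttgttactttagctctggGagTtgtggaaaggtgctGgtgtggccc
UGT2B11: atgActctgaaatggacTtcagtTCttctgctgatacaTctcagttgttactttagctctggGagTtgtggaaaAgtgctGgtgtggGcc
UGT2B28: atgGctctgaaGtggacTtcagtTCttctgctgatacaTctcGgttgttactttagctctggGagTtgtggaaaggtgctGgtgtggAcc
UGT2B17 differed from UGT2B15 at 5 of these positions, UGT2B11 at 10 and UGT2B28 at 11. Over the whole coding sequence, 1584 to 1590 bases in 6 exons for every member, UGT2B11 and UGT2B28 were identical at 97.0% of aligned positions and UGT2B15 and UGT2B17 at 96.5%. UGT2B10 was 94.8% identical to UGT2B11 and 94.1% to UGT2B28. The least alike pair was UGT2B15 and UGT2B28, at 84.0%.

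Reads that match several genes exactly cannot be assigned to a single one, and the share of each transcript exposed to this was measured as windows found in another gene whose name starts with UGT. At 50 bases the share was 40.9% for UGT2B11, 35.7% for UGT2B28, 31.7% for UGT2B10, 27.8% for UGT2B17 and 27.5% for UGT2B15, against 6.75% for UGT2B7 and 3.12% for UGT2B4. All the shared windows of UGT2B15 were shared with UGT2B17. At 100 bases UGT2B15 and UGT2B17 each kept 12.7%, UGT2B11 9.30%, UGT2B10 6.60% and UGT2B28 5.71%, and UGT2B7 and UGT2B4 had none. The read length and the handling of reads with several matches are not given in the sources used here, so a part of the counts of these 5 genes, of a size not known here, may belong to a paralog or have been dropped. This bears most on UGT2B17, which had few counts beside those of UGT2B15. For that reason the 2 closest pairs are also given as sums below.

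**Figure D1:**
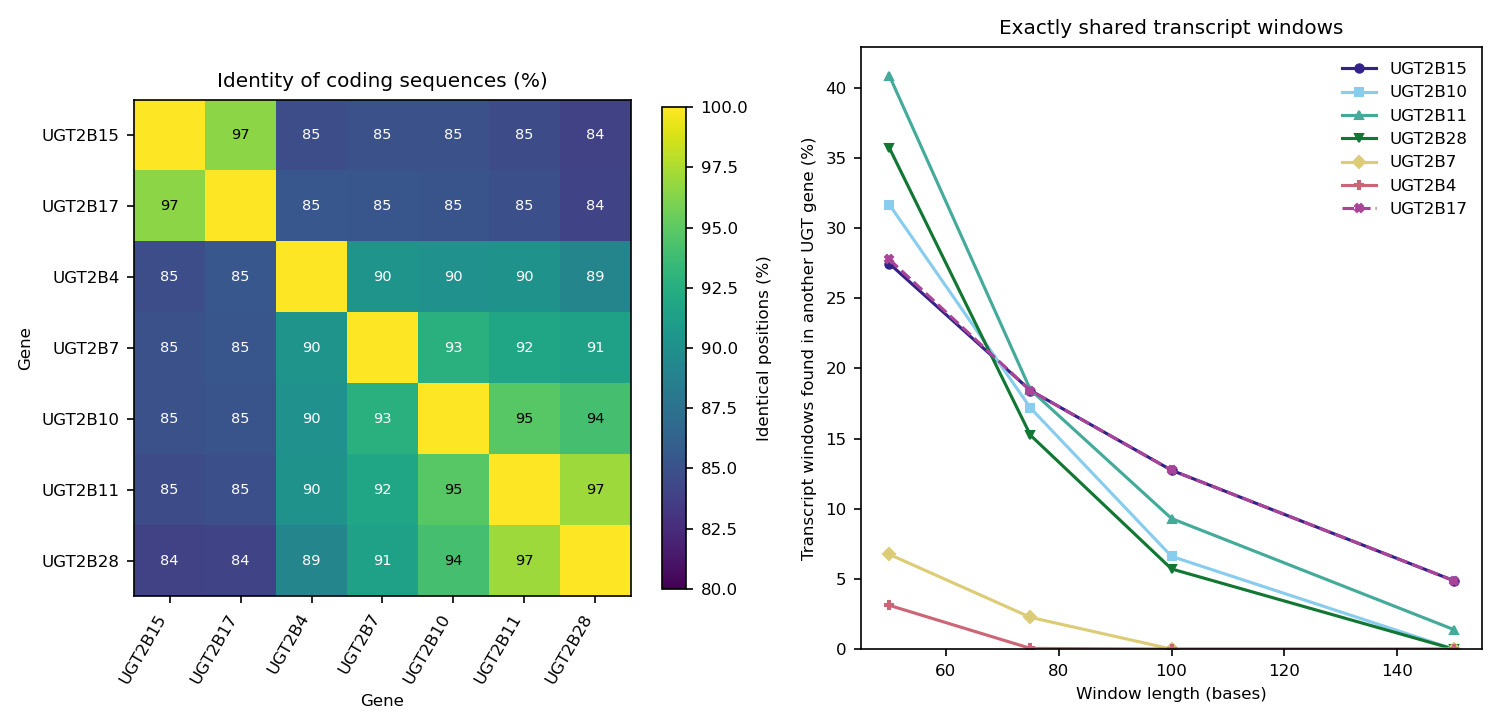
Left, identity of the aligned coding sequences for each pair of the 7 genes in percent. Right, the percentage of each transcript's windows (y axis) of 50 to 150 bases (x axis) found letter for letter in another UGT gene. UGT2B11 with UGT2B28 (97.0%) and UGT2B15 with UGT2B17 (96.5%) are the closest pairs, and the UGT2B4 and UGT2B7 curves lie lowest.

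The RefSeq promoter table held 4 of the 7 members, UGT2B15, UGT2B10, UGT2B11 and UGT2B7. The 250 bases before each start site are shown because UGT2B15, UGT2B10 and UGT2B11 were called lower both at 24 h and in R219S (below), with UGT2B7 as a low member that kept some counts in both. They are written along the gene's strand with coordinates of GRCh38.p14. Capitals mark the forkhead motif, TGTTTAC or TATTTAC, on either strand, chosen because FOXA1 is a forkhead factor.
UGT2B15 promoter, chr4:68670653-68670902 (minus strand): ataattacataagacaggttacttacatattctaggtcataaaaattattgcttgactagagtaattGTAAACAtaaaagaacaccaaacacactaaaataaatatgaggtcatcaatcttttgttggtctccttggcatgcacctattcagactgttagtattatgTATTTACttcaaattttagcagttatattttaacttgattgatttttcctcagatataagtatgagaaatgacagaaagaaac
UGT2B10 promoter, chr4:68815744-68815993 (plus strand): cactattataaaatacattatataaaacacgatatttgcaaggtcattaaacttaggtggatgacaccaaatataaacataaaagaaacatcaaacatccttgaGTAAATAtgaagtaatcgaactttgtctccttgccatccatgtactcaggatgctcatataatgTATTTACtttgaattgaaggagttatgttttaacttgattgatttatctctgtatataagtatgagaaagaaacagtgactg
UGT2B11 promoter, chr4:69214749-69214998 (minus strand): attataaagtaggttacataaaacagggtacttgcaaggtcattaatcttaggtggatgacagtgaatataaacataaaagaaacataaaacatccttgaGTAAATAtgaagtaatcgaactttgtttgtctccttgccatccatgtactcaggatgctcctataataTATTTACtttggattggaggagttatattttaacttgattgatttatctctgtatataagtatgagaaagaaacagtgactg
UGT2B7 promoter, chr4:69096224-69096473 (plus strand): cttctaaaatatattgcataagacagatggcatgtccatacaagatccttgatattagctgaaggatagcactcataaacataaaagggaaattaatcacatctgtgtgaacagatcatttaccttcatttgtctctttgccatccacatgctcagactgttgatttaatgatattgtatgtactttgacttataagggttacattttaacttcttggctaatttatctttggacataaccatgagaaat
A forkhead motif of this kind stood in 3 of the 4 windows, and in 5.27% of all 35116 RefSeq promoter windows of the same length. TATTTAC on the gene's strand began 83 bases before the start in UGT2B15 and 82 bases before it in UGT2B10 and UGT2B11. The capitals do not show that this is the motif the windows share most, and UGT2B7 lacks it. The marked matches do not overlap each other, the motif was chosen after the sequences had been seen, and the 4 promoters are paralogs and not independent. A match is a description of letters and not of binding, which these libraries do not measure.

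UGT2B15 was the most abundant member wherever the family was expressed. Its counts were 546 and 666 in shCtrl, 338 and 484 at 0 h and 201 and 109 in WT, which is 17.1 ± 1.63, 11.7 ± 2.66 and 4.68 ± 0.776 CPM (SD, n = 2 each). It gave 86.2% of the family's counts in shCtrl, 76.6% at 0 h and 41.6% in WT. Per kilobase of transcript its level was 8.22 CPM in shCtrl, 5.65 at 0 h and 2.25 in WT.

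The gene that came next differed between the 3 control groups, whose tables were counted separately, and no test was made across them. In shCtrl and at 0 h UGT2B10 followed, with 0.843 and 1.13 CPM per kilobase. In WT UGT2B11 and UGT2B28 followed, with 1.36 and 1.11 CPM per kilobase, and UGT2B10 stood at 0.269. UGT2B11 had 1 and 8 counts in shCtrl, 21 and 19 at 0 h and 117 and 70 in WT. UGT2B28 had 2 and 2 counts in shCtrl, 9 and 19 at 0 h and 93 and 44 in WT. Both of these genes were thus near the floor in hairpin cells and among the top members in WT cells, although WT and 0 h share the FOXA1_dTAG genotype in the labels. FOXA1 mRNA differed between WT and 0 h as well, at 1021 and 1041 CPM in WT and 169 and 166 CPM at 0 h. Its part in these levels was not tested. In the order of levels per kilobase, UGT2B15 and UGT2B10 stood clear of each other and of the rest in shCtrl, at 0 h and at 1 h. At 0 h UGT2B11 (0.293 and 0.256 CPM per kilobase in its libraries) and UGT2B28 (0.143 and 0.292) did not differ beyond their spread, nor did UGT2B28 and UGT2B7 (0.0927 and 0.179). In WT UGT2B11 and UGT2B28 overlapped, as did UGT2B17 with UGT2B10 and UGT2B4 with UGT2B7. In shCtrl UGT2B7 came next (0.247 and 0.232), and it overlapped UGT2B4 (0.0555 and 0.247), which overlapped UGT2B17 and UGT2B11.

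UGT2B7, UGT2B4 and UGT2B17 were low in every library. UGT2B7 had 16 and 16 counts in shCtrl, 6 and 12 at 0 h and 12 and 4 in WT. UGT2B4 had 4 and 19, 4 and 3, and 9 and 12 in the same groups. UGT2B17, the close relative of UGT2B15, had 4 and 6, 2 and 3, and 25 and 15. The transcripts of UGT2B15 and UGT2B17 are of equal length, 2077 bases, and for each count of UGT2B17 there were 121 of UGT2B15 in shCtrl, 164 at 0 h and 7.75 in WT. The family as a whole held 1406 counts in shCtrl, 1073 at 0 h and 745 in WT, or 19.9, 15.4 and 11.5 CPM.

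**Figure D2:**
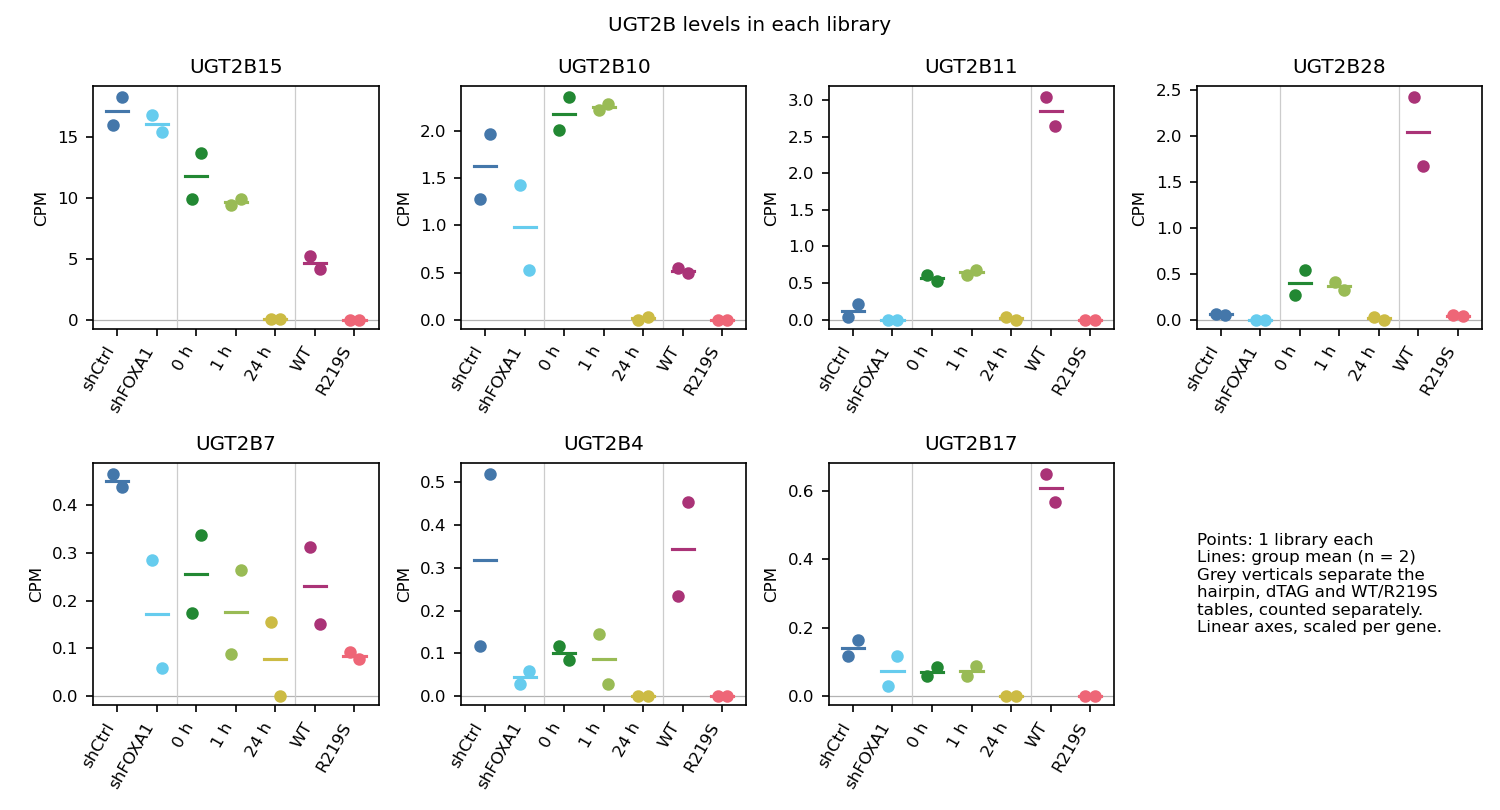
CPM of each member (y axis, linear and scaled per gene) in the 14 libraries by group (x axis), with points for libraries and lines for group means. UGT2B15, UGT2B10, UGT2B11, UGT2B28 and UGT2B17 lie at or near 0 at 24 h and in R219S, and UGT2B11, UGT2B28 and UGT2B17 are highest in WT.

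**Figure D3:**
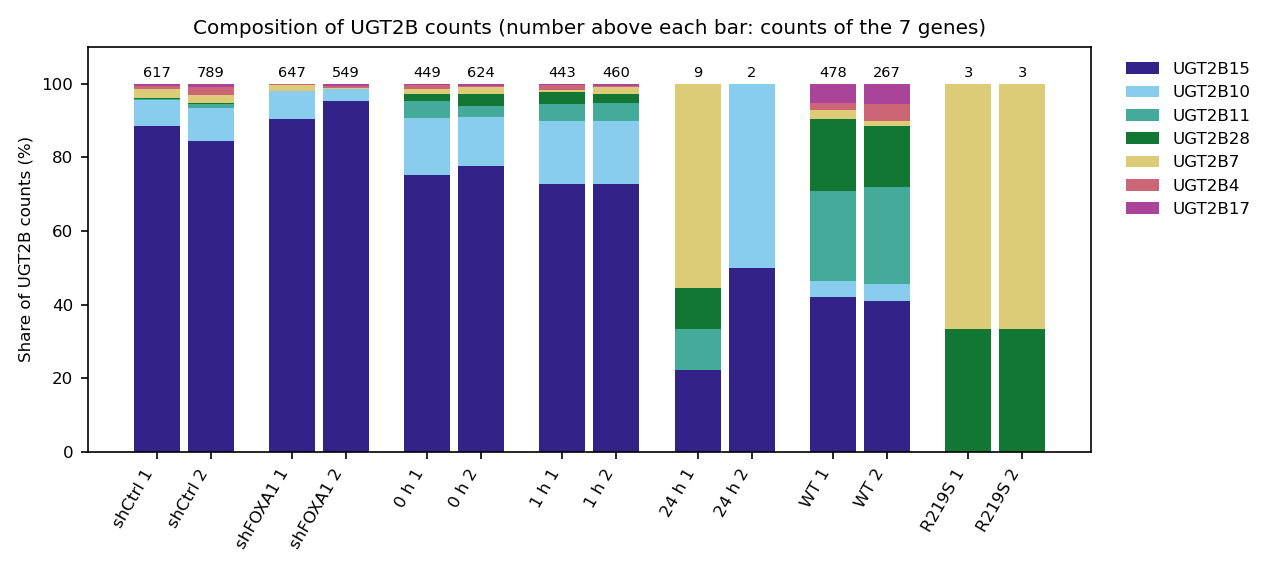
Share of each member in the counts of the 7 genes (y axis, percent) for each library (x axis), with the number of counts above each bar. UGT2B15 makes up most of each bar in the hairpin, 0 h and 1 h libraries, UGT2B11 and UGT2B28 widen in WT, and the 24 h and R219S bars rest on 2 to 9 counts.

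Almost all UGT2B message was gone after 24 h of FOXA1 degradation. UGT2B15 went from 338 and 484 counts at 0 h to 2 and 1 at 24 h, from 11.7 ± 2.66 to 0.0467 ± 0.0221 CPM (SD, n = 2). The 24 h libraries lay far below the 0 h libraries with no overlap, and the pooled level was 252-fold lower (95% counting interval 86.1 to 1227). The fitted log2 fold change was -7.91 ± 0.33 (edgeR adjusted p = 5.23e-19), which ranked 4 by size among the 4862 genes called lower.

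UGT2B10 had 69 and 84 counts at 0 h and 0 and 1 at 24 h, a 141-fold lower pooled level (24.9 to 5603) and a log2 fold change of -6.87 ± 0.62 (adjusted p = 5.89e-11). UGT2B11 had 21 and 19 counts at 0 h and 1 and 0 at 24 h, 36.8-fold lower (6.24 to 1491), with a log2 fold change of -4.94 ± 0.92 (adjusted p = 3.78e-05). Each of these fitted folds rests on 1 count at 24 h: without 24 h replicate 1 they were -6.02 for UGT2B10 and -7.31 for UGT2B11, and without 24 h replicate 2 they were -9.23 and -4.08, called in each case. These 3 members were the ones tested, having passed the filter on low counts only through their 0 h level. Of them 3 of 3 were called lower, where 24.8% of all genes tested were called lower. With such a filter this outcome was nearly fixed in advance, so the share over all genes is not a like comparison.

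The other 4 members were too low for the main fit and are described by their counts. UGT2B28 had 9 and 19 counts at 0 h and 1 and 0 at 24 h, 25.8-fold lower (4.26 to 1055), and was called lower in the joint fit of the 6 dTAG libraries (adjusted p = 0.00031). UGT2B7 had 6 and 12 counts at 0 h and 5 and 0 at 24 h, 3.32-fold lower (1.19 to 11.4). Its log2 fold change was -6.16 when 24 h replicate 1, which held all 5 counts, was left out, and -0.75 without 24 h replicate 2. UGT2B4 went from 4 and 3 counts to 0 and 0, at least 2.15-fold lower, and UGT2B17 from 2 and 3 to 0 and 0, at least 1.54-fold lower, with the 24 h level set at a floor of 3 counts over the group, or 0.0466 CPM. In 7 of 7 members both 24 h libraries lay below both 0 h libraries, a pattern that 32.2% of all genes tested showed. That share covers only genes that passed the filter, which these 4 low members did not. The family as a whole held 11 counts at 24 h against 1073 at 0 h, 89.9-fold lower in CPM (50.02 to 181).

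The sums of near-identical genes gave similar ratios. UGT2B15 and UGT2B17 together went from 827 counts to 3, a 254-fold lower level (86.6 to 1234), and UGT2B11 and UGT2B28 together from 68 counts to 2, a 31.3-fold lower level (8.34 to 264). In bulk RNA, fewer cells that express a gene and less RNA per cell cannot be told apart.

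The loss was not yet seen at 1 h. UGT2B15 had 322 and 335 counts at 1 h against 338 and 484 at 0 h, 9.63 ± 0.298 against 11.7 ± 2.66 CPM. Both 1 h libraries lay just below the lower 0 h library, 9.42 and 9.84 against 9.86 CPM, and the log2 fold change was -0.29 ± 0.11 (adjusted p = 0.0544, unadjusted p = 0.0111). This value sat at the threshold: it was called with DESeq2 size factors (0.0490), with the replicate number as a block (0.0410) and without 0 h replicate 1 (0.000493), and not by DESeq2's own test (0.326).

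UGT2B10 had 76 and 78 counts at 1 h, UGT2B11 had 21 and 23, and UGT2B28 had 14 and 11. All 3 stayed within or next to their 0 h ranges, with log2 fold changes of 0.04 ± 0.22, 0.17 ± 0.43 and -0.13 ± 0.54. With edgeR 0 of the 4 members tested were called at 1 h, 1 of them at an unadjusted p under 0.05, while 19.8% of all genes tested were called. DESeq2 did not call UGT2B15 and gave no adjusted p for UGT2B10, UGT2B11 or UGT2B28. The family held 903 counts at 1 h, 1.16-fold lower in CPM than at 0 h (1.06 to 1.27). The 1 h and 24 h comparisons share the 0 h libraries. The later step was therefore fitted directly over the 6 dTAG libraries. From 1 h to 24 h UGT2B15 fell by 7.62 ± 0.33 on the log2 scale (adjusted p = 1.26e-24). Of the members tested 4 of 4 were called lower, UGT2B10, UGT2B11 and UGT2B28 besides, where 24.5% of all genes were. They passed the filter on low counts only through their 0 h and 1 h levels. A call lower was thus nearly fixed in advance, and the share over all genes is not a like comparison.

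The R219S cells had almost no UGT2B message either. UGT2B15 had 201 and 109 counts in WT and 0 and 0 in R219S, at least 75.5-fold lower (adjusted p = 2.43e-46). UGT2B11 had 117 and 70 counts in WT and 0 and 0 in R219S, at least 45.5-fold lower (adjusted p = 3.65e-29). A count of 0 in the R219S libraries allows up to 0.0633 CPM, from 3 counts over the group.

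UGT2B28 went from 93 and 44 counts in WT to 1 and 1 in R219S, 50.04-fold lower (13.6 to 417), with a log2 fold change of -5.47 ± 0.57 (adjusted p = 1.42e-19). UGT2B17 went from 25 and 15 to 0 and 0, at least 7.56-fold lower (adjusted p = 1.75e-07). This was the comparison in which UGT2B17 had counts enough to be tested. UGT2B10 went from 21 and 13 to 0 and 0, at least 6.37-fold lower (adjusted p = 1.61e-06). With edgeR 5 of 5 members tested were called lower, where 31.6% of all genes tested were. These members too passed the filter only through their WT level, so the share over all genes is not a like comparison.

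UGT2B4, not tested, had 9 and 12 counts in WT and 0 and 0 in R219S, at least 5.11-fold lower. UGT2B7 had 12 and 4 counts in WT and 2 and 2 in R219S, 2.92-fold lower with an interval (0.943 to 12.0) that includes no difference. In 7 of 7 members both R219S libraries lay below both WT libraries, as they did for 41.5% of all genes tested. That share covers only genes that passed the filter, which UGT2B4 and UGT2B7 did not. UGT2B15 and UGT2B17 together went from 350 counts to 0, at least 68.9-fold lower, and UGT2B11 and UGT2B28 together from 324 to 2, 118-fold lower (32.5 to 981). The family held 6 counts in R219S against 745 in WT, 90.7-fold lower in CPM (41.5 to 248).

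The size of the change in R219S was set against the change at 24 h in a fit over the WT, R219S, 0 h and 24 h libraries. Of 5 members tested, edgeR called 0 as different between these changes, 0 at an unadjusted p under 0.05 and 0 by DESeq2, where 56.0% of all genes tested were called. The adjusted p was 0.362 for UGT2B15, 0.193 for UGT2B11, 0.707 for UGT2B10, 0.760 for UGT2B28 and 1.0 for UGT2B17. With so few counts left these changes could not be ordered: had each member changed from WT as it did from 0 h to 24 h, R219S would have held 0.897 counts of UGT2B15, 0.176 of UGT2B10, 3.71 of UGT2B11, 3.88 of UGT2B28 and 3.52 of UGT2B7, where 0, 0, 0, 2 and 4 were observed.

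The hairpin did not change the main member beyond its spread. UGT2B15 had 546 and 666 counts in shCtrl and 585 and 523 in shFOXA1, 17.1 ± 1.63 against 16.1 ± 1.00 CPM with overlapping libraries. Its log2 fold change was -0.06 ± 0.11 (adjusted p = 0.721), and the pooled level was 1.07-fold lower with an interval from 0.982 to 1.16. UGT2B10 had 44 and 72 counts in shCtrl and 50 and 18 in shFOXA1, with overlapping libraries and a log2 fold change of -0.70 ± 0.42 (adjusted p = 0.272).

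The low members sat lower in shFOXA1, but of them UGT2B7 alone was in the main fit, where it did not pass the test. UGT2B7 had 16 and 16 counts in shCtrl and 10 and 2 in shFOXA1, a log2 fold change of -1.34 ± 0.64 (adjusted p = 0.151). UGT2B4 had 4 and 19 counts in shCtrl and 1 and 2 in shFOXA1, 7.47-fold lower (2.26 to 38.9), UGT2B11 had 1 and 8 against 0 and 0, at least 2.92-fold lower, and UGT2B28 had 2 and 2 against 0 and 0. UGT2B17 had 4 and 6 against 1 and 4, with libraries that met at 4 counts. These 4 members were left out of the main fit by the filter on low counts. Libraries did not overlap and lay lower in 4 of 7 members, UGT2B4, UGT2B7, UGT2B11 and UGT2B28, against 34.7% of all genes tested. That share covers only genes that passed the filter, which UGT2B4, UGT2B11 and UGT2B28 did not.

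With edgeR 0 of 3 members tested were called under the hairpin, 0 at an unadjusted p under 0.05, where 23.6% of all genes tested were called. DESeq2 did not call UGT2B15 or UGT2B10 and gave no adjusted p for UGT2B7. The spread between replicates was widest in shFOXA1, with a chi-square per degree of freedom of 11.8 against 2.04 to 4.04 in the other groups. Without shFOXA1 replicate 1 the log2 fold changes of UGT2B10 and UGT2B7 were -1.58 and -2.84. Without shFOXA1 replicate 2 they were -0.17 and -0.63. The hairpin changes of UGT2B10 and UGT2B7 thus depended on which shFOXA1 library was kept. UGT2B4 gave -3.46 without shCtrl replicate 1.

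The 24 h change and the hairpin change differed for the 2 most abundant members. In a fit over both tables the 24 h change minus the hairpin change was -7.83 ± 0.40 on the log2 scale for UGT2B15 (adjusted p = 2.99e-11) and -6.16 ± 0.97 for UGT2B10 (adjusted p = 0.000123). UGT2B15 gave between -7.44 and -8.38 when any 1 library was left out. UGT2B10 gave -8.55 without 24 h replicate 2, -5.32 without 24 h replicate 1 and -5.28 without shFOXA1 replicate 1. UGT2B7 and UGT2B11 were not called (adjusted p = 0.871 and 0.770), so 2 of 4 members tested were called lower, where 13.2% of all genes tested were. UGT2B11 passed the filter only through its 0 h level and had 0 counts in shFOXA1 and 1 at 24 h. Its changes could therefore not be compared, and its missing call is no result. None of these members passed the filter through its 24 h level, so the share over all genes is not a like comparison. Degradation and hairpin also differ in the engineered cells, the time and the amount of FOXA1 that remains, and these cannot be told apart here.

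**Figure D4:**
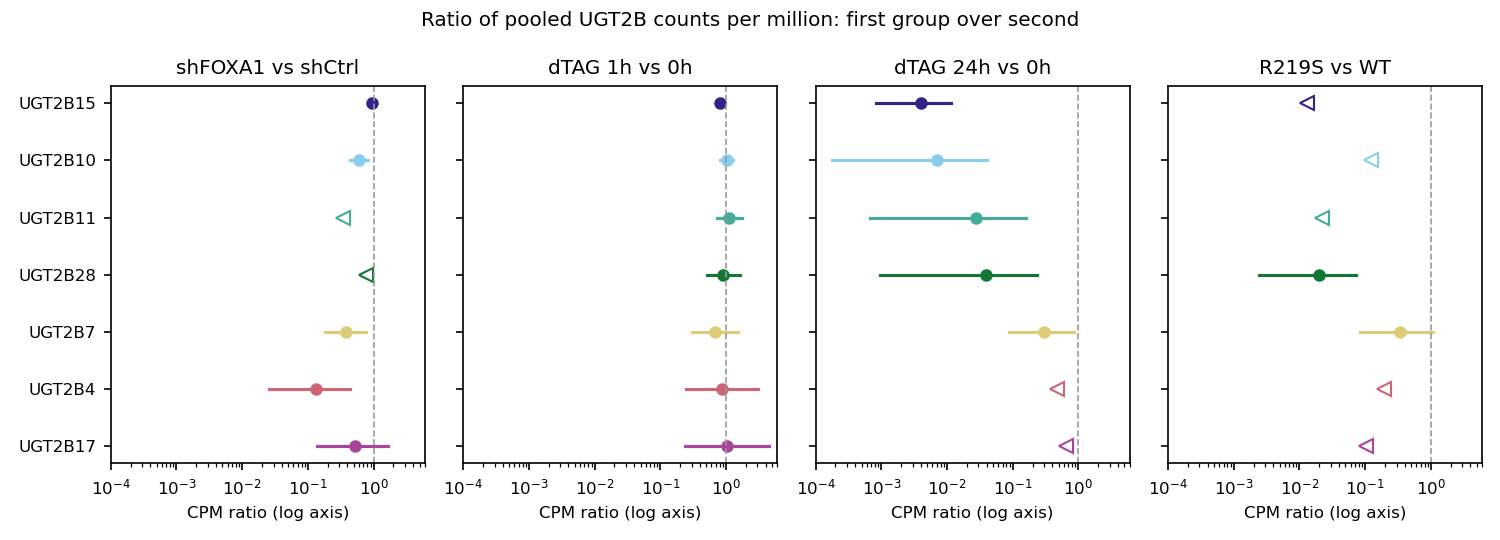
Ratio of pooled CPM, first group over second (x axis, log scale), for each member (y axis) in the 4 comparisons. Dots are ratios with 95% counting intervals, and the dashed line is a ratio of 1. Open triangles are ratios with a first group of 0 counts set at a floor of 3 counts, without the counting error of the second group. The points for UGT2B15 lie at the dashed line for the hairpin and at the far left for 24 h and R219S.

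Of 15 other UGT enzymes 2 to 3 passed the filter in each comparison. UGT8 stood at 47.3 CPM in shCtrl, 40.0 at 0 h and 18.8 in WT, above the 7 UGT2B genes together, and each of the other 14 had a mean of at most 2.43 CPM in every group. UGT8, which makes galactosylceramide and conjugates no androgens, was the sole called member of this list, 1386 and 1407 counts at 0 h and 863 and 872 at 24 h. It fell by 0.61 ± 0.064 on the log2 scale at 24 h, by 0.35 ± 0.086 in R219S and by 0.63 ± 0.13 in shFOXA1, the last not called without shCtrl replicate 2 (adjusted p = 0.0633). The 5 UGT2B pseudogenes had at most 13 counts in any hairpin or dTAG library. Genes beside the cluster on chromosome 4, a list added after the data were seen, gave other values at 24 h. YTHDC1, an RNA-binding protein, went from 4649 and 5053 counts to 5029 and 5228 at 24 h (log2 fold change 0.16 ± 0.041, not called without 0 h replicate 1, adjusted p = 0.0658). TMPRSS11E, a serine protease gene, rose from 44 and 40 counts to 99 and 100 at 24 h (1.32 ± 0.23).

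The genes that supply UDP-glucuronic acid and carry glucuronides moved in both directions. As background for the lists that follow, 22.1% of all genes tested were called higher and 24.8% lower at 24 h, and 30.5% higher and 31.6% lower in R219S. Of 13 tested from the list of 14, 8 rose and 3 fell at 24 h, 5 rose and 5 fell in R219S, 1 rose and 2 fell in shFOXA1, and 1 rose at 1 h. The median log2 fold change of the list was 0.30 at 24 h and 0.07 in R219S, beside 0.0056 and 0.0034 over all genes tested. UGDH, the enzyme that makes UDP-glucuronic acid, had 7919 and 8450 counts at 0 h and 9428 and 9977 at 24 h, a rise of 0.32 ± 0.038, and it rose by 1.13 ± 0.038 in R219S and fell by 0.58 ± 0.061 in shFOXA1. ABCG2, an exporter of conjugates, rose by 1.31 ± 0.088 at 24 h and by 1.40 ± 0.13 in R219S, while ABCC4, another exporter, fell by 0.72 ± 0.11 at 24 h. SLCO2B1, an uptake carrier of steroid conjugates, fell by 3.58 ± 0.68 in R219S, from 32 and 21 counts to 2 and 1.

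Of the enzymes that act on the androgen substrates, 3 of 12 tested rose and 3 fell at 24 h, 3 of 11 rose and 5 fell in R219S, and 3 of 11 rose and 3 fell in shFOXA1. At 24 h and in R219S these counts are near the shares over all genes and are no result about these enzymes. Under the hairpin 23.6% of all genes tested were called in either direction, and the list was not tested against that share. HSD3B1, which makes androstenedione from dehydroepiandrosterone, rose by 1.35 ± 0.25 at 24 h, and HSD17B3, which makes testosterone, rose by 1.20 ± 0.18. HSD17B6, which can return androstanediol to dihydrotestosterone, fell by 1.16 ± 0.19 in R219S. RDH5 rose by 1.53 ± 0.12 in R219S. In the sulfation list, the other route of steroid conjugation, 2 of 6 tested genes rose and 3 fell at 24 h and 3 of 6 rose and 2 fell in R219S. PAPSS1, which makes the sulfate donor, fell by 0.78 ± 0.055 at 24 h and by 1.19 ± 0.049 in R219S.

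Of the transcription factors known to act on UGT2B genes, FOXA1 itself and HNF4A are given here. FOXA1 mRNA fell by 0.57 ± 0.036 in R219S, from 1021 and 1041 CPM in WT to 699 and 678 CPM. HNF4A had at most 3 counts in each dTAG, WT and R219S library. The part of either gene in the UGT2B values was not tested.

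Liver and gut cells express many UGT2B genes. The hepatocyte marker sum changed mainly through ALB (albumin). The enterocyte marker sum changed mainly through VIL1, a microvillus protein, at 24 h and through SI, the intestinal sucrase-isomaltase, in R219S. The 10 hepatocyte markers summed to 10.8 to 12.0 CPM at 0 h and 7.44 to 8.66 CPM at 24 h, with none of them at 0 in either group, and 3 of 7 tested fell, ALB by 1.38 ± 0.19, TTR by 2.84 ± 0.58 and APOA1 by 1.49 ± 0.59, the last not called without 24 h replicate 1 (adjusted p = 0.109), 24 h replicate 2 (0.231) or 0 h replicate 1 (0.493). The median over those tested was 0.12. In WT the sum was 27.6 to 28.2 CPM and in R219S 5.85 to 6.86 CPM, with HP at 0 in WT and APOC3 and TTR at 0 in R219S. ALB made up 25.0 and 25.3 CPM of it in WT and 3.43 and 3.02 CPM in R219S, and was the 1 of 4 tested that fell. CYP2E1 was called higher in R219S, 0.598 and 0.909 CPM in WT and 1.44 and 1.28 CPM in R219S, but not without WT replicate 1 (adjusted p = 0.245) or R219S replicate 1 (0.0950). Under the hairpin the hepatocyte sum was 456 to 474 CPM in shCtrl and 19.9 to 70.9 CPM in shFOXA1, most of it ALB, which did not pass the test (-3.40 ± 0.89, adjusted p = 0.146), with HP at 0 in both, APOC3 at 0 in shCtrl and AHSG at 0 in shFOXA1. UGT2B15 stayed within its spread there. The 7 enterocyte markers summed to 39.0 to 40.6 CPM at 0 h, 18.8 to 19.5 at 24 h, 61.4 to 62.2 in WT and 23.6 to 24.2 in R219S, and CDX1 and FABP1 were at 0 in all 4 groups. At 24 h 2 of 3 tested fell, SI by 2.20 ± 0.17 and VIL1 by 0.95 ± 0.075. VIL1 went from 31.3 and 32.0 CPM at 0 h to 17.4 and 16.3 CPM at 24 h. SI went from 6.88 and 7.65 CPM to 1.71 and 1.55 CPM. In R219S 1 of 2 tested fell, SI, from 39.8 and 37.6 CPM to 2.74 and 2.52 CPM, while VIL1 had 22.1 and 23.7 CPM in WT and 20.6 and 21.3 CPM in R219S. Of the luminal prostate markers 10 of 10 were tested. At 24 h 6 rose and 4 fell, beside 22.1% and 24.8% of all genes tested. In R219S 2 rose and 7 fell, beside 30.5% and 31.6% of all genes tested. FOLH1, a surface peptidase of prostate cells, fell by 1.41 ± 0.040 at 24 h, and TMPRSS2, a serine protease, rose by 0.65 ± 0.061 at 24 h and fell by 4.89 ± 0.16 in R219S. The 5 fibroblast markers summed to 217 to 224 CPM in WT, most of it LUM (171 and 165 CPM), and to 505 to 517 CPM in R219S. COL3A1 reached 275 and 280 CPM in R219S, having stood at 7.05 and 5.91 CPM in WT. COL1A1 fell from 25.2 and 25.2 CPM in WT to 13.5 and 13.5 CPM in R219S, and COL1A2 was at 0 in both. Of 4 tested in R219S 3 were called higher and 1 lower, beside 30.5% and 31.6% of all genes. The part of these marker changes in the UGT2B values was not tested.

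UGT2B15's pattern over the 14 libraries was shared most closely by TMEFF2, HSBP1, HSPA2, PTPRB and HNF4G. The measure was Pearson's r of log2 CPM centred within each separately counted table, over 13644 genes, and gave 0.992 for TMEFF2, 0.990 for HSBP1, 0.990 for HSPA2, 0.989 for PTPRB and 0.988 for HNF4G. The libraries fall into separate clusters, with 24 h and R219S apart from the rest, so these r values describe that split and carry no p. TMEFF2, a transmembrane protein of prostate and brain, had 585 and 557 counts at 0 h and 110 and 103 at 24 h. PTPRB, a receptor tyrosine phosphatase, had 2456 and 2497 counts at 0 h and 115 and 122 at 24 h. HNF4G, a nuclear receptor of gut and liver, had 621 and 720 counts at 0 h and 284 and 254 at 24 h. HSPA2 had 620 and 580 counts at 0 h and 159 and 150 at 24 h. HSBP1 had 3907 and 4211 counts at 0 h and 3088 and 3049 at 24 h. Pearson's r does not weigh the size of a change, and the changes of these genes were smaller than that of UGT2B15.

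The other members had lower r with UGT2B15. UGT2B10 had an r of 0.962 and ranked 53 among the genes compared, UGT2B28 had 0.936 and ranked 144, and UGT2B11 had 0.919 and ranked 221. UGT2B17 had 0.832 and ranked 815, and UGT2B7, which kept counts at 24 h and in R219S, had 0.583 and ranked 2730. UGT2B4 was not among the genes compared.

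**Figure D5:**
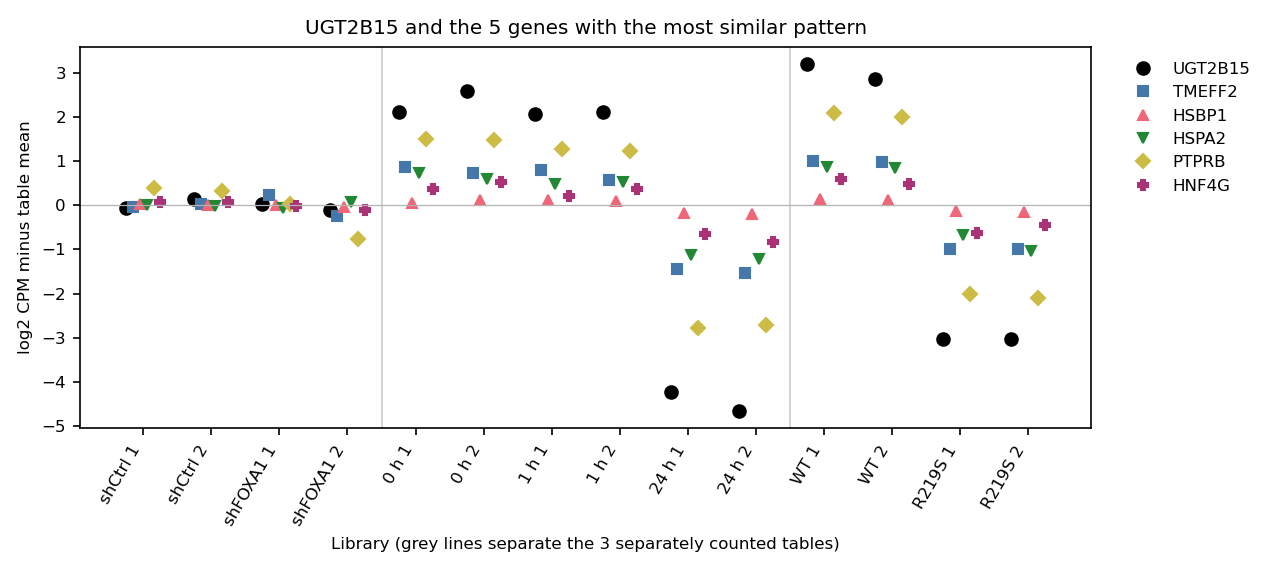
log2 CPM minus the mean of the library's table (y axis) in each of the 14 libraries (x axis) for UGT2B15 and the 5 genes with the highest Pearson r with it. Points are single libraries, and all 6 genes lie below their table mean at 24 h and in R219S, with UGT2B15 lowest.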

How the data were processed

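Gene-level RNA sequencing counts of 14 libraries were used as deposited by the authors: raw whole-number counts per feature, with no normalization. Per the submitters' processing notes, STAR, featureCounts, DESeq2 and the build hg19 were used; versions, annotation, strand and the handling of multiply matched reads are not given in the sources used here. Both dTAG tables held the same 0 h libraries. Per-sample columns not used numbered 0. The knockdown and dTAG tables name Ensembl identifiers, matched to symbols through the gene-name table, and the R219S table names symbols.

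Whole tables were fitted, 4 libraries to a comparison, with edgeR 4.0.16 in R 4.3.3 (filterByExpr with a minimum count of 10, TMM, estimateDisp, robust glmQLFit, quasi-likelihood F test), with Benjamini-Hochberg adjustment over all genes tested and a call at 0.05. All adjusted p-values are from edgeR unless DESeq2 is named. The 24 h change minus the hairpin change and the R219S change minus the 24 h change were fitted over 8 libraries, the latter over 17569 genes matched by symbol. Standard errors are the size of the log2 fold change divided by the root of the F statistic. CPM divides by the library total, and CPM per kilobase also by the GENCODE 29 transcript length. Pooled ratios sum the 2 libraries of a group with an exact (Clopper-Pearson) 95% interval, which covers counting error only. For a group at 0, a fold given as "at least" is the lower limit of that interval. The floor sets such a group at 3 counts and leaves out the counting error of the other group. On simulated counts edgeR recovered 100% of 200 genes changed 4-fold in 6 of the 7 comparisons and 99% in the 24 h change minus the hairpin change. Those genes were drawn from rows with counts well above those of most members. The simulated replicate spread was small and equal in all groups, so recovery of low members was not tested. Sequences were compared with Biopython 1.88, and promoters come from RefSeq (GRCh38.p14).

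The members and gene lists were chosen with earlier results of these data known. Named genes were the 7 members, FOXA1, at most 4 called genes of each list and comparison with the largest changes, and the 5 genes with the pattern most like UGT2B15. Some genes and motifs that these rules or searches covered are not reported here. UGDH, HNF4A, ALB, YTHDC1 and genes named only because they were at 0 were added after their values were seen. Scaling by library totals, the sums of near-identical pairs, the neighbour list and the motifs were also added after the data were seen.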

Additional observations from a re-analysis of the deposited data

Results flagged for a closer look

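The change in UGT2B15 differed between 24 h of degradation and the hairpin, by -7.83 on the log2 scale in the test of the difference itself (edgeR adjusted p = 2.99e-11). Counts went from 338 and 484 to 2 and 1 in the dTAG cells and from 546 and 666 to 585 and 523 under the hairpin. UGT2B10 differed in the same test, by -6.16 (adjusted p = 0.000123), with counts from 69 and 84 to 0 and 1 in the dTAG cells and from 44 and 72 to 50 and 18 under the hairpin. The degree of FOXA1 loss, the time and the engineered cells differ between these experiments and cannot be told apart.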

How the results depend on the processing

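The number of members called was within 1.5 times the reported one in most settings. For the hairpin (0 reported) it was 1 with no filter on low counts, where UGT2B4 was called (adjusted p = 0.0312), and 0 to 2 when a library was left out. At 1 h (0 reported) it was 1 with DESeq2 size factors, 1 with the replicate block and 0 to 1 when a library was left out, UGT2B15 each time. At 24 h against 0 h (3 reported) it was 3 to 5 when a library was left out, 5 without 24 h replicate 1. A filter of at least 1 CPM in 2 libraries removed low members, leaving 3 of 5 called in R219S and 2 of 4 for 24 h against 1 h, fewer genes being tested. At 24 h against 0 h that filter removed UGT2B11, and DESeq2 gave UGT2B11 no adjusted p, so its call was absent in both settings. Fold changes near 0 changed sign: with 1 library left out, UGT2B15 under the hairpin ran from -0.164 (no shCtrl replicate 1) to 0.0384 (no shCtrl replicate 2), and at 1 h UGT2B10 ran from -0.0697 (no 0 h replicate 1) to 0.162 and UGT2B28 from -0.544 to 0.472 (no 0 h replicate 2), with 0.0328 without 1 h replicate 2. Differences between changes that were not called also changed sign. With 1 library left out, the 24 h change minus the hairpin change ran from -2.19 (no 24 h replicate 1) to 1.07 for UGT2B11 and from -4.85 to 1.13 (no shFOXA1 replicate 1) for UGT2B7, and the R219S change minus the 24 h change ran from -0.991 to 2.13 (no 24 h replicate 2) for UGT2B10, which was 1.11 with DESeq2, and from -1.93 to 1.19 (no 24 h replicate 1) for UGT2B28. FOXA1 at 1 h was 0.000163 with no filter on low counts, 0.00491 without 0 h replicate 1 and 0.00542 without 1 h replicate 2. The cause was not tested. Over the 7 comparisons, 311 alternative values were had for members that passed the filter in the reported fit: 294 kept their direction and their side of the threshold, 5 crossed to a call and 12 changed sign. Settings in which a member was filtered out or had no adjusted p are not among them, so a call lost that way is not counted. The replicate numbers were not taken as pairing, since the correlation of replicate differences between groups was between -0.016 and 0.034, and apart from UGT2B15 at 1 h the replicate block changed no call of a member. Over all genes, the 4506 calls under the hairpin became 1713 with shCtrl replicate 2 left out, 2421 with shCtrl replicate 1 left out and 6793 with shFOXA1 replicate 1 left out, and the 3850 calls at 1 h became 1851 with DESeq2, 2428 without 1 h replicate 1 and 2232 without 1 h replicate 2. With library totals in place of TMM, the share of higher calls in the 24 h change minus the hairpin change went from 41.7% to 52.6%. At these depths a count of 0 allows up to 0.0466 CPM at 24 h and 0.0633 CPM in R219S, so a further fall below those levels was not detectable.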
